A study of Mus musculus with 6 samples.

Results

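The genes of 10 lymphocyte receptors that restrain T cell responses, or share ligands with receptors that do, were compared between regulatory T (Treg) cells of the pancreas and of the spleen. They were Lag3, Tigit, Havcr2, Pdcd1, Ctla4, Btla, Cd96, Cd226, Cd160 and Cd200. Each had exactly 1 probe set, among 19752 genes measured with a probe set of their own. These 10 genes and the gene lists below were chosen with earlier results of these data known. Their shares, set beside those of all genes, are therefore descriptive and not independent evidence. Pancreatic and splenic Treg cells were each measured on 3 arrays. The mice were females of the NOD.Foxp3-ires-gfp reporter line, aged 10 weeks and prediabetic, with the background given as NOD NRB_SFB+. NOD mice develop autoimmune diabetes spontaneously, and the reporter marks cells that transcribe Foxp3 with green fluorescent protein (GFP). Cells were sorted as DAPI- CD4+ TCRb+ CD45+ GFP+, so splenic cells also carried the reporter and came from mice prone to the disease. Nothing in the labels tells separate mice from pooled ones, and the p-values below therefore reflect the spread among these 6 arrays alone, which may be technical.

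Co-inhibitory receptors are surface proteins that dampen signalling from the T cell receptor or from co-stimulators when they meet their ligands. CTLA-4 and PD-1 belong to the CD28 family, LAG-3 is a relative of CD4 that binds MHC class II, TIM-3 (Havcr2) belongs to the TIM family, and TIGIT and CD96 bind the poliovirus receptor (Pvr) in competition with the activating receptor CD226. BTLA and CD160 bind the TNF receptor family member HVEM (Tnfrsf14), and CD200 is itself a ligand, whose receptor inhibits myeloid cells. Treg cells carry CTLA-4 and TIGIT constitutively and use them to limit antigen-presenting cells, and activated Treg cells in tissues are known for higher levels of several of these receptors.

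Median probe-set intensity was between 82.02 and 92.03 on the 6 arrays, whose small number sets the precision of every value. The interquartile range of log2 intensity ran from 2.23 to 3.07, being widest on pancreas array 1 (3.07) and spleen array 3 (3.00) and narrowest on pancreas array 3 (2.23) and spleen array 1 (2.49). Background was set at an intensity of 63.9, the 95th percentile of olfactory and vomeronasal receptor genes. The genes that define the sorted cells were far above it in both tissues, with Foxp3 at a log2 intensity of 11.48 ± 0.16 in pancreas and 11.52 ± 0.32 in spleen (SD, n = 3 each). Of 12 T cell and sorting genes, 0 passed the test described below (limma), and 0 had an unadjusted p under 0.05. The 14 measured genes of pancreatic acinar cells, led by Clps and Ctrb1, which are not genes of T cells, summed to an intensity of 15790 to 32550 on pancreas arrays and 1240 to 3126 on spleen arrays. In a sorted population measured in bulk, fewer cells that carry a transcript and less of it per cell cannot be told apart.

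Lag3 and Tigit were higher in pancreatic than in splenic Treg cells, by 3.84-fold and 1.84-fold, and were the 2 of the 10 genes that passed the test over all genes. Havcr2 and Ctla4 also had all 3 pancreas arrays above all 3 spleen arrays, at 2.07-fold and 1.52-fold, but did not pass. Btla, Cd96 and Cd160 had all pancreas arrays below all spleen arrays and did not pass either. Cd160, counted with the others below, was under background on every array. Genes were called at a limma adjusted p under 0.05 (Benjamini-Hochberg over all 19752 genes), a rule that called 0.678% of all genes in either direction, 0.547% as higher in pancreas and 0.132% as lower. An unadjusted p under 0.05 was reached by 7 of the 10 and by 6.84% of all genes, the share to set beside each such count below. The arrays of the tissues did not overlap for 7 of the 10 receptor genes, against 10.4% of all genes, with 4 receptor genes above (4.57% of all genes) and 3 below (5.81%). The median log2 fold change was 0.21 over the 10 and -0.0009134 over all genes, with 5 receptor genes higher and 5 lower on average. The median of the 10 was 0.11 without pancreas array 1, 0.13 without pancreas array 2 and 0.40 without pancreas array 3.

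**Figure D1:**
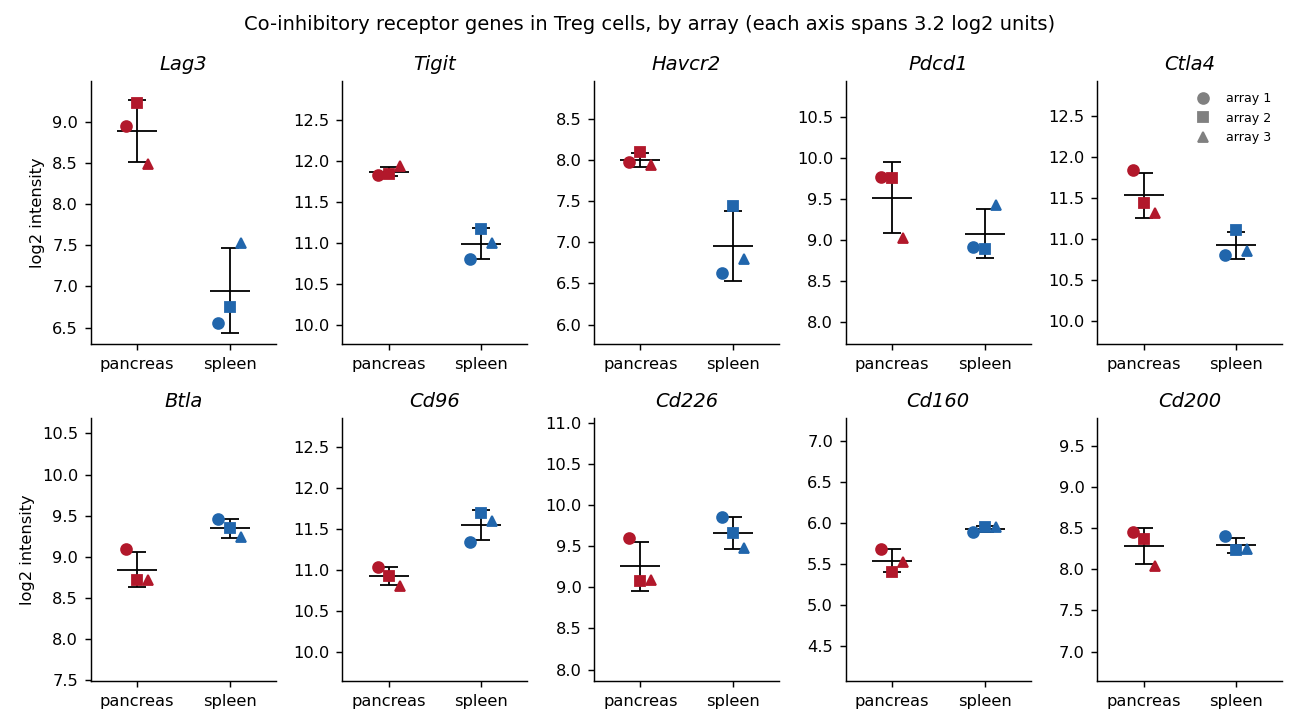
Log2 intensity of each co-inhibitory receptor gene (vertical axes, all of equal span) on the 3 pancreas arrays, left, and the 3 spleen arrays, right, with symbols for array number and the mean and SD in black. Lag3, Tigit, Havcr2 and Ctla4 lie higher in pancreas without overlap, whereas Btla, Cd96 and Cd160 lie lower without overlap. Cd160 is under background on every array.

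**Figure D2:**
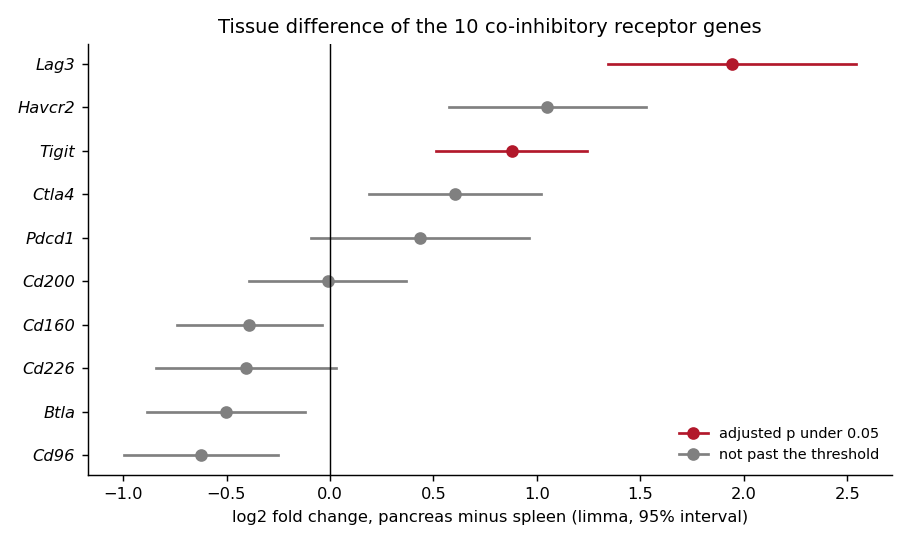
Log2 fold change, pancreas minus spleen, of the 10 genes (horizontal axis) with 95% limma intervals that are not adjusted for the number of genes. The intervals of Lag3 (1.94) and Tigit (0.88), in red, belong to the genes past the test, and those of Pdcd1, Cd200 and Cd226 cross 0.

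Lag3 encodes a receptor that binds MHC class II and is expressed by activated and regulatory T cells. Its intensity was 493, 603 and 359.95 on pancreas arrays 1 to 3, against 94.3, 108 and 185 on spleen arrays 1 to 3. The lowest pancreas array thus lay clearly above the highest spleen array, by 0.96 on the log2 scale, although the spread within each tissue was the widest or nearly so among the 10 genes. The means were 8.89 ± 0.37 and 6.95 ± 0.51 (log2, SD, n = 3 each), a log2 fold change of 1.94 ± 0.27 (SE, adjusted p = 0.00959). With 1 array left out the fold change ran from 1.75 to 2.23, and the call ended without pancreas array 1 (adjusted p = 0.0594).

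Cd4 lies next to Lag3 on the chromosome, encodes the co-receptor for the same ligand, and had a log2 fold change of -0.09 ± 0.26 (SE). Its intensity was 2971, 3101 and 1862 in pancreas, against 2017, 2703 and 3765 in spleen, so the groups overlapped. Within each tissue the arrays stood in the same order for Cd4 as for Lag3. The log2 ratio of Lag3 to Cd4 within an array was tighter than Lag3 alone, at -2.59, -2.36 and -2.37 in pancreas and -4.42, -4.65 and -4.35 in spleen. It differed by 2.03 ± 0.12 (SE) between the tissues, with exact permutation p = 0.1, the smallest that 3 arrays against 3 can give (two-sided).

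The acinar genes also stood highest on pancreas array 2, lowest among pancreas arrays on array 3, and highest among spleen arrays on array 3, as Lag3 did. Their summed intensity was 20750, 32550 and 15790 on pancreas arrays 1 to 3, against 1289, 1240 and 3126 on spleen arrays 1 to 3. Of the 14 acinar genes 13 rose in pancreas by the test over all genes, and their median log2 fold change was 3.51. Without pancreas array 1 the test was passed by 7 of them, with a median of 3.61. Among genes outside the 10 and above background, the 5 whose log2 values followed Lag3 most closely over the 6 arrays were Cel, Ctrl, Ranbp1, Cpb1 and Reg1, with Pearson's r from 0.993 to 0.996. Cel, Ctrl and Cpb1 encode digestive enzymes of acinar cells, Reg1 encodes a lectin secreted by them, and Ranbp1 encodes a regulator of nuclear transport. Cel, the gene of a lipase, was at a log2 intensity of 10.05, 10.78 and 8.76 in pancreas and 5.40, 5.75 and 7.19 in spleen. The 6 points share each array's amplification and normalization, and the width of log2 intensity also followed part of this order. It was 3.07, 2.72 and 2.23 on pancreas arrays 1 to 3, where the narrowest array had the lowest Lag3, and 2.49, 2.80 and 3.00 on spleen arrays 1 to 3, in the order of Lag3. With arrays brought to one median and width, Lag3 was still called (adjusted p = 0.0246). Without spleen array 3, the spleen array with the most acinar signal, the Lag3 log2 fold change was 2.23 (adjusted p = 0.00127). The median log2 fold change of the acinar genes was then 3.90, against 3.51 with all arrays. The part of acinar RNA in the Lag3 difference was not tested.

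**Figure D3:**
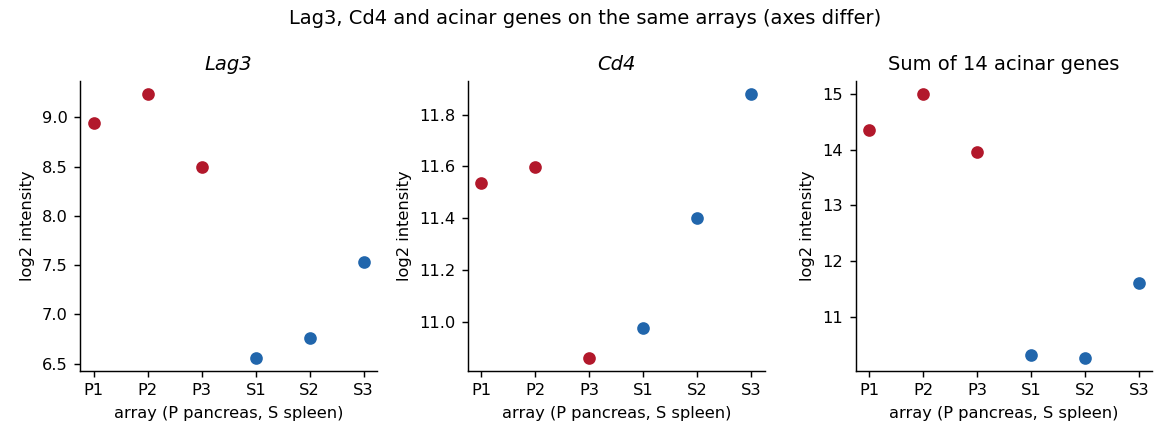
Log2 intensity (vertical axes, which differ) of Lag3, of Cd4 and of the sum of 14 acinar genes on pancreas arrays P1 to P3, red, and spleen arrays S1 to S3, blue. On pancreas arrays all 3 panels show the same order, and on spleen arrays S3 is highest in all 3, while Cd4 alone does not separate the tissues.

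Tigit encodes an inhibitory receptor for Pvr that is abundant on Treg cells, and it shares this ligand with the products of Cd96 and Cd226. Tigit was at an intensity of 3642, 3669 and 3927 in pancreas, against 1786, 2314 and 2043 in spleen. It had the tightest pancreas arrays of the 10 genes, and no spleen array came near them. The means were 11.87 ± 0.06 and 10.99 ± 0.19 (log2, SD, n = 3 each), and the log2 fold change was 0.88 ± 0.17 (SE, adjusted p = 0.0473). This call was at the edge of the threshold, ended in 12 of 19 alternative settings, and survived leaving out an array only for pancreas array 3 (adjusted p = 0.0327). It ended without pancreas array 1 or 2 (adjusted p = 0.0710 and 0.208) and without spleen array 1, 2 or 3 (0.174, 0.112 and 0.184), while the fold change itself ran from 0.78 to 0.97.

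The other receptors of this ligand had lower means in pancreas and did not pass the test. Cd96, which encodes a second inhibitory or modulating receptor of T and NK cells, was at 2092, 1944 and 1795 in pancreas, against 2596, 3309 and 3102 in spleen. All pancreas arrays were lower, with a log2 fold change of -0.62 ± 0.17 (SE), but the gene did not pass over all genes (adjusted p = 0.195). Cd226, the gene of the activating receptor DNAM-1, was at 777, 538 and 544 in pancreas, against 924, 807 and 711 in spleen. Pancreas array 1 lay above spleen array 3, so the tissues overlapped, and the log2 fold change of -0.41 had a 95% interval of -0.84 to 0.03 (adjusted p = 0.809).

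Ratios within an array cancel whatever scales both genes of an array alike. They do not say which of 2 genes has more transcript, because probe sets differ in response. The log2 ratio of Tigit to Cd96 was 0.80, 0.92 and 1.13 in pancreas and -0.54, -0.52 and -0.60 in spleen. It was higher in pancreas by 1.5 ± 0.10 (SE), which is 2.83-fold, and the gap between the nearest arrays, 1.32, was larger than the range within either tissue. Because Tigit alone and Cd96 alone separated the tissues in opposite directions, their ratio could not overlap. Its separation is therefore no further result. The log2 ratio of Tigit to Cd226 was 2.23, 2.77 and 2.85 in pancreas, against 0.95, 1.52 and 1.52 in spleen. It was higher by 1.28 ± 0.27 (SE), or 2.44-fold, again without overlap. The ratio of Cd96 to Cd226 overlapped between the tissues, with a difference of -0.22 ± 0.23 (SE, exact permutation p = 0.4). Over the 6 receptor pairs tested, 4 did not overlap and reached the smallest possible exact permutation p of 0.1. This is 0.15 when adjusted over the pairs, so none could pass. With values floored at background, 5 pairs reached an exact permutation p of 0.1, Btla and Cd160 being the added pair, and again none could pass.

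**Figure D4:**
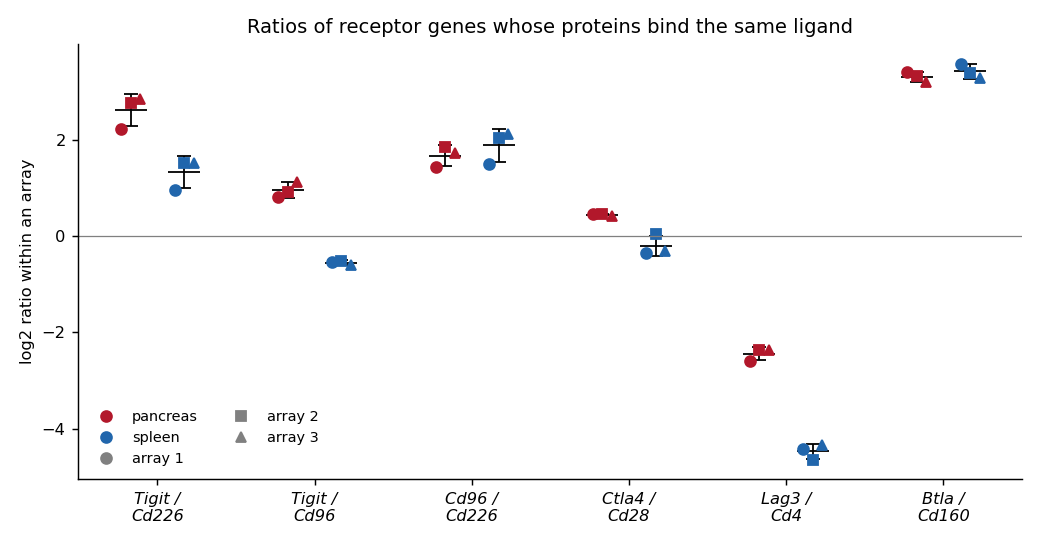
Log2 ratio within an array (vertical axis) for 6 pairs of genes whose proteins bind the same ligand, with pancreas arrays in red left of spleen arrays in blue, symbols for array number, and the mean and SD in black. Tigit over Cd226, Tigit over Cd96, Ctla4 over Cd28 and Lag3 over Cd4 are higher in pancreas without overlap, and the other 2 pairs overlap.

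The stretches before the starts of Tigit and Cd96, genes of the same chromosome with mean differences of opposite sign, are shown with that of Havcr2, the gene with the second highest fold change. RefSeq windows (GRCm38.p6) were matched for 8 of the 10 genes, and not for Lag3 and Cd226. The 250 bases before the start are given 5′ to 3′ on the strand of the gene, at chr16:43664185-43664434 (minus strand) for Tigit, chr16:46120249-46120498 (minus strand) for Cd96 and chr11:46454681-46454930 (plus strand) for Havcr2. Capitals mark the AP-1 site TGANTCA in Havcr2 and the NFAT core GGAAA, read on either strand, in Tigit and Cd96.
Tigit: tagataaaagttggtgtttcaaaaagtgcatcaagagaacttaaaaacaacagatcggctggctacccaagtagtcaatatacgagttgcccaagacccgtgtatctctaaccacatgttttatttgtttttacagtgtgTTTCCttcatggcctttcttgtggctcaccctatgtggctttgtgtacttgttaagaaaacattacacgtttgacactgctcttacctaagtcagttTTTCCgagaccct
Cd96: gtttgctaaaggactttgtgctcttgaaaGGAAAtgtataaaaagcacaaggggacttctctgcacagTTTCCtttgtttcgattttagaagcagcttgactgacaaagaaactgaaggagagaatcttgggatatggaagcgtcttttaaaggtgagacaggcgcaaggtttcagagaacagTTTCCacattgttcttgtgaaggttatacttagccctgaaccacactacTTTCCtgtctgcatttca
Havcr2: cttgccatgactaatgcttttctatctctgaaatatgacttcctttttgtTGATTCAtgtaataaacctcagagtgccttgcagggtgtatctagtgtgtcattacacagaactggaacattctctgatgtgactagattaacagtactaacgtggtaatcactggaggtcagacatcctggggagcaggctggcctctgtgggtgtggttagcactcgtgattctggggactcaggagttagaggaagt
The NFAT core stood at 2 places in the Tigit window and at 4 in the Cd96 window, and no marked matches overlapped. It occurs in 55.6% of all 32851 promoter windows of this length and in those of 5 of the 8 receptor genes. The AP-1 site, found at positions -200 to -194 of Havcr2, occurs in 6.75% of all windows and in no other window of the 8 genes. The T-box site AGGTGT (11.8% of windows) was present only in Ctla4 among the 8, and the letters of the NR4A site AAAGGTCA (1.34%) and of the Prdm1 core AGTGAAAG (1.09%) were in none, all on both strands. These are matches of letters and not measured binding.

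Havcr2 encodes TIM-3, a receptor of Th1 cells, effector Treg cells and myeloid cells. Its intensity was 252, 273 and 245 in pancreas, against 98.8, 173 and 111 in spleen. The pancreas arrays were close to each other and all higher, while spleen array 2 stood above the other 2 spleen arrays. The log2 means were 8.0 ± 0.08 and 6.95 ± 0.43 (SD, n = 3 each), with a log2 fold change of 1.05 ± 0.22 (SE, adjusted p = 0.0667). The gene passed without spleen array 2 (1.29, adjusted p = 0.0282) and without pancreas array 3 (1.08, adjusted p = 0.0286). It did not pass without pancreas array 1 or 2 (adjusted p = 0.112 and 0.281) or without spleen array 1 or 3 (0.204 and 0.248). On the same arrays the macrophage and dendritic cell genes, led by Cd68 and Lyz2, summed to 1224 to 1319 in pancreas and 920.5 to 1078 in spleen. Of these 17 genes, 11 were below background on all 6 arrays, 3 had an unadjusted p under 0.05, and the median log2 fold change was 0.06. The median was 0.54 over the 5 whose mean over the 6 arrays was above background. Lyz2 alone passed the test (log2 fold change 1.90, with 2 of 3 spleen arrays above background). The part of these cells in the Havcr2 difference was not tested.

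Ctla4 and Pdcd1 encode the CD28 family inhibitors CTLA-4, which competes with CD28 for CD80 and CD86, and PD-1. Ctla4 was at 3662, 2766 and 2559.7 in pancreas, against 1789.9, 2217 and 1857 in spleen. Each pancreas array was higher than each spleen array, though pancreas array 1 stood well above the other 2. The log2 fold change was 0.60 ± 0.19 (SE), with a 95% interval of 0.19 to 1.02 and an adjusted p of 0.318. Pdcd1 was at 872, 862 and 518 in pancreas, against 482, 476 and 686 in spleen. Here the tissues overlapped, because pancreas array 3 was low and spleen array 3 high, and the log2 fold change of 0.44 had a 95% interval of -0.09 to 0.96 (adjusted p = 0.910).

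The ratio of Ctla4 to Cd28 was compared between the tissues. Cd28, which encodes the activating receptor for the ligands of CTLA-4 and lies next to Ctla4, had a log2 fold change of -0.04 (95% interval -0.44 to 0.35). The log2 ratio of Ctla4 to Cd28 was 0.45, 0.46 and 0.42 in pancreas and -0.35, 0.04 and -0.31 in spleen, a difference of 0.65 ± 0.12 (SE) with exact permutation p = 0.1 (0.15 adjusted over the pairs). Pancreas array 1, which was highest for Ctla4, was also highest for Cd28, and the pancreas ratios differed by far less than Ctla4 itself. Icos, the co-stimulator gene on the other side of Ctla4, had all pancreas arrays above all spleen arrays but did not pass (log2 fold change 0.38, adjusted p = 0.667).

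Btla, the gene of an inhibitory receptor for HVEM, was at 547, 421 and 422 in pancreas, against 706, 650.2 and 603 in spleen. No pancreas array reached the lowest spleen array, and the log2 fold change was -0.50 ± 0.17 (SE, adjusted p = 0.431). Cd160, which encodes a second HVEM receptor found on NK and CD8 T cells, was at 51.4, 42.3 and 46.1 in pancreas, against 59.15, 61.9 and 61.8 in spleen. All 6 values were below background, so no fold is given, although the tissues did not overlap. The ratio of Btla to Cd160 rests on those values and is not read here. Its difference was -0.11 ± 0.11 (SE, exact permutation p = 0.5) on the values as deposited, and -0.50 (exact permutation p = 0.1) with values floored at background, which leaves the difference of Btla alone. Cd200 lies beside Btla and was at 349, 329 and 263 in pancreas, against 338, 300.5 and 304 in spleen. Its levels overlapped throughout, with a log2 fold change of -0.0099 and a 95% interval of -0.39 to 0.37 (adjusted p = 1.00).

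Neighbouring genes on the chromosome did not pass the test at any of the 10 loci, apart from the receptor genes themselves. Next to Lag3, Cd4 (log2 fold change -0.09) and Ptms, which encodes parathymosin (0.41, adjusted p = 0.829), both fell short. Next to Tigit, Zbtb20, the gene of a transcriptional repressor, was at -0.63 (adjusted p = 0.347), and Drd3, a dopamine receptor gene, at 0.12. The neighbours of the other receptor genes (Med7 and BC053393 of Havcr2, Neu4 and Fam174a of Pdcd1, Atg3 of Btla, Plcxd2 and Nectin3 of Cd96, Rttn and Dok6 of Cd226, Rnf115 and Pdzk1 of Cd160, Gm609 of Cd200) were between -0.36 for Atg3 and 0.24 for Gm609.

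Values of some receptor genes followed each other across the arrays. Over the 6 arrays Tigit and Havcr2 had a Pearson's r of 0.964 and Tigit and Lag3 one of 0.906, whereas Tigit and Btla had -0.892. Btla and Cd226 had 0.961, and their deviations from the tissue mean had the same sign on every array. For Btla these were 0.251, -0.127 and -0.124 in pancreas and 0.116, -0.004 and -0.112 in spleen on the log2 scale. For Cd226 they were 0.348, -0.181 and -0.167 in pancreas and 0.191, -0.004 and -0.187 in spleen. Cd200 had no r above 0.506 in size with any of the others. Genes of 1 array share its amplification and normalization, and the tissue difference itself enters each r.

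Tigit was most closely followed over the 6 arrays by Mt2, Samsn1, Lilrb4a, Nr4a2 and Ccr8, with Pearson's r from 0.987 to 0.991. These encode a metallothionein, a signalling adaptor, an inhibitory immunoglobulin-like receptor, a nuclear receptor induced by antigen and a chemokine receptor. Mt2 was at a log2 intensity of 8.24, 8.33 and 8.22 in pancreas, against 6.10, 6.79 and 6.20 in spleen. The part of acinar RNA in the Tigit difference was not tested.

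The ligands of these receptors were measured in the same sorted cells, which themselves can express some of them. Of 17 ligand genes (Cd200r1, the receptor for CD200, included), 0 passed over all genes by limma and 3 had an unadjusted p under 0.05, with a median log2 fold change of -0.06. Cd86, a ligand of CTLA-4 and CD28, was at 88.1, 52.0 and 58.4 in pancreas, against 152, 124 and 125 in spleen. All pancreas arrays were lower and only 1 of them was above background (log2 fold change -1.05 ± 0.21 SE, adjusted p = 0.0661). Lgals3, which encodes a galectin that binds LAG-3, was at 0.61 (adjusted p = 0.424), with all pancreas arrays above all spleen arrays. Pvr was at 224, 203 and 139 in pancreas, against 181, 284 and 343 in spleen, with overlap (log2 fold change -0.49, adjusted p = 0.875).

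Transcription factor genes known to induce or restrain some of these receptors were higher in pancreas more often than not. Among 20 measured, the mean was higher in pancreas for 18, against 9837 of all 19752 genes. The test over all genes was passed by 5 that rose (against 0.547% of all genes) and 0 that fell (against 0.132%). An unadjusted p under 0.05 was reached by 11, and the median log2 fold change was 0.62. Nr4a2, a nuclear receptor gene induced by T cell receptor signals, was at 615, 472 and 569 in pancreas, against 104, 219 and 156 in spleen (1.85 ± 0.25 SE, adjusted p = 0.00952). Bhlhe40, the gene of a transcriptional repressor made by activated T cells, rose by 1.84 (adjusted p = 0.0473), with 2 of 3 spleen arrays above background. Prdm1 (1.21, adjusted p = 0.0215) and Tbx21 (1.44, adjusted p = 0.0324), which encode Blimp-1 and T-bet, rose as well. Id2, an inhibitor of E proteins, was at 1718, 1689 and 1489 in pancreas, against 641, 827 and 980 in spleen (1.02, adjusted p = 0.0473). With 1 array left out, the number of these genes called was 0 without pancreas array 1 (10 at an unadjusted p under 0.05), 1 without pancreas array 2, spleen array 1 or spleen array 2, 4 without spleen array 3 and 9 without pancreas array 3. The call of Nr4a2 ended without pancreas array 1 (adjusted p = 0.0562) and held with each other array left out. The calls of Bhlhe40, Tbx21 and Id2 ended without pancreas array 1 or 2 or spleen array 1 or 2, with adjusted p up to 0.183, 0.105 and 0.209. That of Prdm1 ended without any array but pancreas array 3 (up to 0.118). With arrays brought to one median and width, the calls of Nr4a2, Bhlhe40, Tbx21 and Id2 ended (adjusted p = 0.0540, 0.0729, 0.0620 and 0.156) and that of Prdm1 held (0.0118).

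Some other factors of Treg and exhausted T cells differed little in mean, and others were higher in pancreas without passing. Foxp3 was at -0.04, Ikzf2, the gene of Helios, at 0.12, Tox, which encodes a factor of exhausted T cells, at 0.03, Eomes at -0.05 and Nfatc1 at 0.10. Each had overlapping arrays and an adjusted p of 1.00. Nfil3, whose product induces Havcr2 in T cells, was at 1.23 (adjusted p = 0.0548), and Maf, a regulator of several inhibitory receptors, at 0.81 (adjusted p = 0.284). Both had all pancreas arrays above all spleen arrays without passing. The same held for Nr4a1, Ahr and Nr4a3, at 1.10, 0.78 and 0.62 (adjusted p = 0.188, 0.180 and 0.311). Irf4, Tox2 and Batf were at 0.61, 0.49 and 0.47 with overlapping arrays (adjusted p = 0.646, 0.811 and 0.823).

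**Figure D5:**
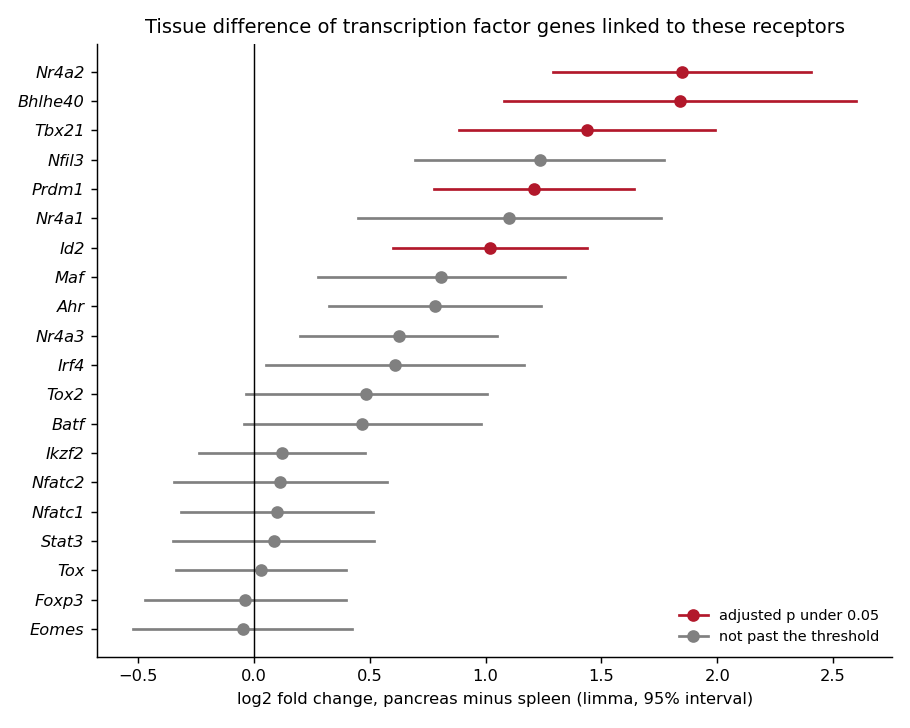
Log2 fold change, pancreas minus spleen, of 20 transcription factor genes (horizontal axis) with unadjusted 95% limma intervals, the genes past the test in red. Nr4a2, Bhlhe40, Tbx21, Prdm1 and Id2 passed, and Foxp3, Tox and Eomes lie near 0.

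Other receptors of lymphocytes were compared in the same way. Of 9 co-stimulatory receptor genes of the CD28 and SLAM families, 0 passed by limma and 1, Icos, had an unadjusted p under 0.05, with a median log2 fold change of 0.0036. Icos is described above, and Cd84, a SLAM family gene, was at -0.35 (adjusted p = 0.818). Of 18 other inhibitory receptor genes, 2 passed as higher in pancreas (against 0.547% of all genes) and 0 as lower (against 0.132%). An unadjusted p under 0.05 was reached by 5. The mean was higher in pancreas for 12 and lower for 6, with a median log2 fold change of 0.05. Lilrb4a, whose probe set may share signal with a near-identical neighbour gene, was at 297, 310.0 and 305 in pancreas, against 51.2, 72.0 and 71.0 in spleen (log2 fold change 2.25, adjusted p = 0.000318), with 2 of 3 spleen arrays above background. Klrc1, the gene of the NK receptor NKG2A, passed (adjusted p = 0.0383), but all 6 of its values were below background, and leaving out any array but pancreas array 3 ended its call (adjusted p as high as 0.170). Pecam1, an inhibitory adhesion receptor gene, was at -0.81 (adjusted p = 0.112).

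Of 23 genes for phosphatases, adaptors, proteases and traffic proteins that act with these receptors, 0 passed by limma and 1 had an unadjusted p under 0.05, with a median of 0.00131. That gene was Trat1, which encodes an adaptor that stabilises the T cell receptor and helps carry CTLA-4 to the surface. It was at 1056, 836 and 704 in pancreas, against 1444, 1579.9 and 1266 in spleen (log2 fold change -0.74, adjusted p = 0.167). Adam10 and Adam17, the proteases that shed LAG-3, were at -0.10 and -0.12, Sh2d2a, an adaptor gene of activated T cells, at 0.40, and Lrba, which protects CTLA-4 from degradation, at 0.20.

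Markers of other cells that can carry these receptors were also measured. The CD8 T and NK cell genes, 10 measured, led by Cd8a and Cd8b1, summed to 842.2 to 1005 in pancreas and 813 to 920.1 in spleen, with 0 past the test by limma and 2 at an unadjusted p under 0.05. Cd8a had a log2 fold change of 0.0071. The NK receptor genes Ncr1, Klrk1, Klrb1c and Klre1 were below background on all arrays, so no fold is given, but Ncr1 and Klrk1, the 2 genes at an unadjusted p under 0.05, had all pancreas arrays above all spleen arrays. Ncr1 was at 58.8, 46.1 and 54.7 in pancreas, against 36.0, 29.3 and 23.6 in spleen (adjusted p = 0.104), and Klrk1 had an adjusted p of 0.0871. Klrc1, described above, ran the same way and also below background. The B cell genes, whose cells can express Btla and Cd200, led by Cd79b and Cd22, summed to 1051 to 2207 in pancreas and 791.6 to 887.9 in spleen. Of 11, all had a higher mean in pancreas (median log2 fold change 0.74) and 9 had an unadjusted p under 0.05. Of these genes 1, Cd79a, passed (adjusted p = 0.0482, with 1 of 3 spleen arrays above background). The Cd79a call ended without pancreas array 1 or any single spleen array (adjusted p as high as 0.142). The 6 plasma cell genes, led by Xbp1 and Jchain, summed to 1452 to 2013 in pancreas and 1068 to 1582 in spleen. Jchain alone passed the test (log2 fold change 3.31, adjusted p = 0.000975), with 0 of 3 spleen arrays above background. Its call held with each array left out. The 7 islet genes (led by Ppy and Ins2, 436.2 to 632.5 in pancreas and 453.3 to 543.2 in spleen), the 9 neutrophil and mast cell genes (Ly6g and Mpo, 373.5 to 414.6 and 328.4 to 450.7) and the 11 stromal and endothelial genes (Pecam1 and Col1a1, 1225 to 1281 and 1494 to 1581) held 0 genes past the limma test and 1, 0 and 1 at an unadjusted p under 0.05. The part of these cells in the receptor differences was not tested.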

How the data were processed

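RNA from sorted Treg cells went through the Ambion WT Expression Kit onto Mouse Gene 1.0 ST arrays, per the labels. The authors deposited linear RMA intensity values per probe set. The submitters' processing notes name Affymetrix Power Tools, and versions and genome build are not given in the sources used here. Values (4.78 to 17604) were taken to log2 without pseudocount or filter. Of 24922 probe sets, 21425 name exactly 1 gene, and the one with the highest mean served for 921 genes with several.

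Genes were compared with limma 3.58.1 in R 4.3.3 (lmFit and eBayes, no covariates, two-sided, Benjamini-Hochberg over 19752 genes), pancreas minus spleen. Ratios within an array were compared by exact permutation. All 10 receptors are given, with their neighbours and the 5 genes nearest in pattern to Lag3 and Tigit. Of each related list those past the test and the 2 with the smallest p above background are given, and of lists of other cells the sum and the 2 highest genes. Any other gene named was picked after its values were seen. The members and lists were chosen with earlier results of these data known. Alternatives covered normalization, low values, probe sets, variance, array weights, markers of other cells, the replicate number and each array left out.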

Additional observations from a re-analysis of the deposited data

How the results depend on the processing

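The 134 genes called over all genes became 212 with quantile normalization, 64 with arrays centred on their medians, 66 with arrays brought to one median and width, 88 with arrays centred on the T cell and sorting genes (81 higher and 7 lower in pancreas, against 108 and 26), 1684 with array weights (724 higher and 960 lower), and 3 with values floored at background. The last setting took the prior degrees of freedom to 0.353, against 6.58. With 1 array left out the count ran from 64 to 262 (46 higher and 44 lower without pancreas array 1). Of the 10 receptor genes, 2 were called. This count was 1 with arrays centred on medians, brought to one width or centred on T cell genes, without markers of other cells, and with the replicate number as a block. It was 8 with array weights and 0 with the floor (6 at an unadjusted p). With limma's scale method, chosen after seeing the data, it was 0 (7 at an unadjusted p), of 49 genes. With 1 array left out it ran from 0, without pancreas array 1 (8 at an unadjusted p), to 3, without pancreas array 3. With the replicate block 132 genes were called, and the call of Tigit ended (adjusted p = 0.162). The labels do not say whether arrays of the same number share mice or a batch. Same-numbered deviations from the tissue means had correlations of -0.465, 0.115 and -0.677. The correlation was 0.647 between pancreas array 3 and spleen array 1, the narrowest array of each tissue. These correlations cannot settle whether the numbers mark pairs. The array weights rest on pancreas array 2 (3.15) and spleen array 2 (4.01), against 0.336 to 0.965 elsewhere. Lag3 kept its call in 16 of 19 alternatives and its direction in all 19. Its call ended with the floor (adjusted p = 0.410), the scale method (0.0560) and without pancreas array 1. Tigit kept its direction in all 19 and its call in 7, with adjusted p = 0.588 at one width. The fold changes of Lag3 and Tigit could not move under the probe set settings, the floor or the replicate block. Nor could they move where only the variance model or the set of genes tested changed, so direction was fixed in those settings. Cd96 passed with quantile normalization and Havcr2 among genes above background (adjusted p = 0.0461 and 0.0322). Of the other receptors only Cd200 changed sign, at 0.046 with quantile normalization, 0.041 at one width, 0.017 centred on T cell genes and 0.091 with weights, and between -0.092 and 0.11 with 1 array left out (above 0 without pancreas array 3 or spleen array 1). The ratio of Btla to Cd160 turned to 0.030 at one width and was -0.50 (exact permutation p = 0.1) with the floor, against -0.11 (p = 0.5). The other 5 ratios kept their direction in 12 of 12 alternatives, though the probe set settings and the floor could not move them. Other causes of these shifts were not tested. Amplified RNA, arrays of unequal width and 3 arrays a tissue limit what can be called.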
